A study of Homo sapiens with 24 samples.

Results

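The TIMM and TOMM genes encode the translocases of the inner and outer mitochondrial membranes. Members were the genes whose symbols begin with TIMM or TOMM followed by a digit and hold no hyphen, which gave 25 of the 25168 genes in the count tables. The deposited descriptions name 10 of them as outer membrane and 15 as inner membrane translocase genes. Their RNA was measured in 2 established human pancreatic ductal adenocarcinoma lines, BXPC3 and PANC1, each a single line in culture. For 24 h each line received vehicle, SR4 (5 uM), lonidamine (300 uM) or both compounds, with 3 libraries a group and 24 in all. All groups shared low-glucose DMEM with serum, and the labels call every genotype a control. SR4 is a code name for a mitochondrial uncoupler, an agent that lowers the membrane potential. Lonidamine blocks entry of pyruvate into mitochondria, export of lactate from the cell and electron transfer at complex II. Separate doses for the combination are not in the labels, so comparisons of the combination with either compound assume the same doses. The labels also do not say whether the libraries of a group came from separate cultures, so each p measures the spread between these libraries, which may be technical.

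Most mitochondrial proteins are made in the cytosol and enter the organelle through these complexes. In the outer membrane, the receptors TOMM20, TOMM22 and TOMM70 bind precursors and pass them to the TOMM40 channel. Precursors with a presequence then cross the inner membrane through TIM23, drawn by the membrane potential and by a motor that TIMM44 anchors, while carrier proteins are handed by small TIM chaperones to TIM22. Because import through TIM23 and TIM22 needs the membrane potential, this machinery is a known point of contact between uncoupling and the supply of mitochondrial proteins.

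Library totals lay between 9142433 and 11470973 counts in BXPC3 and between 8873041 and 11822495 in PANC1. Levels are given as CPM, the count of a gene relative to its library's total, scaled by TMM (trimmed mean of M-values) over the 24 libraries. The 6 ductal and epithelial markers summed to 6257 to 6772 CPM in BXPC3 vehicle libraries and 3658 to 3680.3 CPM with the combination. In PANC1 the same sum was 3508 to 3655 CPM with vehicle and 792 to 832 CPM with the combination. With vehicle it was mostly KRT8, KRT18 and KRT19, at means of 1828, 1035 and 673 CPM. KRT7, EPCAM and CDH1 were low there, at means of 7.26, 27.9 and 16.8 CPM. VIM and SMAD4, listed as markers of the lines, stood at 67.3 and 0 CPM in BXPC3 vehicle libraries. In those of PANC1 they stood at 4031 and 49.3 CPM. Single markers differed, and EPCAM in BXPC3 was 222 ± 9.68 CPM with vehicle and 302 ± 12.3 with the combination, and KRT7 1931 ± 78.7 with vehicle and 2484 ± 82.2 with SR4 (SD, n = 3). Sums of 5 acinar and of 5 immune markers reached at most 1.77 and 3.19 CPM in any library. The 5 fibroblast markers, mostly COL1A1, summed in PANC1 to 79.4 to 86.5 CPM with vehicle, 12.2 to 14.3 with SR4, 31.1 to 34.1 with lonidamine and 15.9 to 17.2 with the combination, and in BXPC3 to 16.5 to 17.1 CPM with vehicle and 20.7 to 27.2 with the combination. The 4 endothelial markers, mostly CDH5, summed in BXPC3 to 9.51 to 11.3 CPM with vehicle and at most 1.80 in any treated library, and in PANC1 to at most 0.439. DCN, a fibroblast marker, had 0 counts in all PANC1 libraries. The nuclear-retained RNAs MALAT1 and NEAT1 summed to 359 to 421 CPM with vehicle and 1523 to 1997 CPM with the combination in BXPC3, and to 629 to 842 and 1843 to 1916 CPM in PANC1. The part of these shifts in the changes below was not tested. In bulk RNA, fewer cells with a transcript and less of it per cell cannot be told apart.

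Of the 25 members, 22 passed the filter on low counts in BXPC3 and 23 in PANC1, where TOMM5 also passed. TOMM6, a small subunit of the outer membrane complex, had 0 counts in all 24 libraries. That allows up to 0.348 CPM in the shallowest (3 counts, counting error only), with no allowance for reads shared between gene models. The TOMM6 gene model shares 2237 bases of the same strand with PRICKLE4, which is its whole span. TOMM20L, a TOMM20 paralog, had 0 to 2 counts a library. TOMM5, another small subunit, had 3 to 17 counts. Its model shares 9824 bases of the same strand, nearly its whole span, with FBXO10, and 4230 with SHB. Reads shared by such models may not have been counted for either gene, so the low values of TOMM5 and TOMM6 are uncertain.

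With SR4 and with the combination most import genes fell in BXPC3, and their median fell furthest with both compounds. Most also fell with lonidamine in PANC1. With the combination in PANC1 the shares that rose and fell lay near those of all genes, with TIMM23B, TIMM44, TIMM10B and TIMM9 furthest up and TOMM40L and TIMM17A furthest down. SR4 in BXPC3 left 3 of 22 tested members higher and 15 lower by edgeR's quasi-likelihood test (adjusted p under 0.05), beside 67.2% of all genes called in either direction (33.4% higher and 33.9% lower). The members' median log2 change was -0.25, beside 0.01 over the 12920 genes tested. Lonidamine left 4 of 22 tested members higher and 9 lower in this line, beside 67.5% of all genes (34.8% and 32.7%), with a median of -0.07. For the combination it was 3 of 22 tested members higher and 15 lower, beside 79.2% (39.7% and 39.5%), with a median of -0.48. The 15 falls of 22 with SR4 and with the combination stood above the share of falls among all genes, and the 9 of 22 with lonidamine stood nearer to it.

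PANC1 gave 7 of 23 tested members higher and 10 lower with SR4, beside 71.7% of all genes called (35.0% higher and 36.7% lower), and a median log2 change of -0.03. With lonidamine it gave 5 of 23 tested members higher and 14 lower, beside 69.2% (35.0% and 34.2%), and a median of -0.27. The count of rises with lonidamine was 3 with DESeq2's test and 3 without PANC1 lonidamine replicate 1 or 3 or PANC1 vehicle replicate 1. Under both compounds the count was 10 of 23 tested members higher and 8 lower, beside 81.1% (40.1% and 40.9%), and the median 0.05. Upper-quartile scaling, which moved the all-gene median of this comparison by -0.11, gave 7 higher and 11 lower. Summed over the members, BXPC3 libraries held 1464 ± 19.3 CPM with vehicle, 1218 ± 20.2 with SR4, 1256 ± 33.7 with lonidamine and 979 ± 17.4 with the combination (SD, n = 3). In PANC1 the sums were 2609 ± 45.9, 2691 ± 78.5, 2376 ± 31.3 and 2774 ± 21.0 CPM in the same order. TIMM50 made up a large share of the PANC1 sums, and without it they were 1423 ± 22.0, 1371 ± 19.5, 1231 ± 27.1 and 1486 ± 15.4 CPM, so that the SR4 sum lay above vehicle with TIMM50 and below it without. Without TIMM50 the BXPC3 sums were 1358 ± 17.4, 1122 ± 22.4, 1154 ± 34.7 and 914 ± 14.7 CPM. TIMM44 was higher in all 6 comparisons with vehicle, and TIMM10, TIMM8B and TOMM22 were lower in all 6. The share of all genes called the same way in all 6 was not counted.

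**Figure D1:**
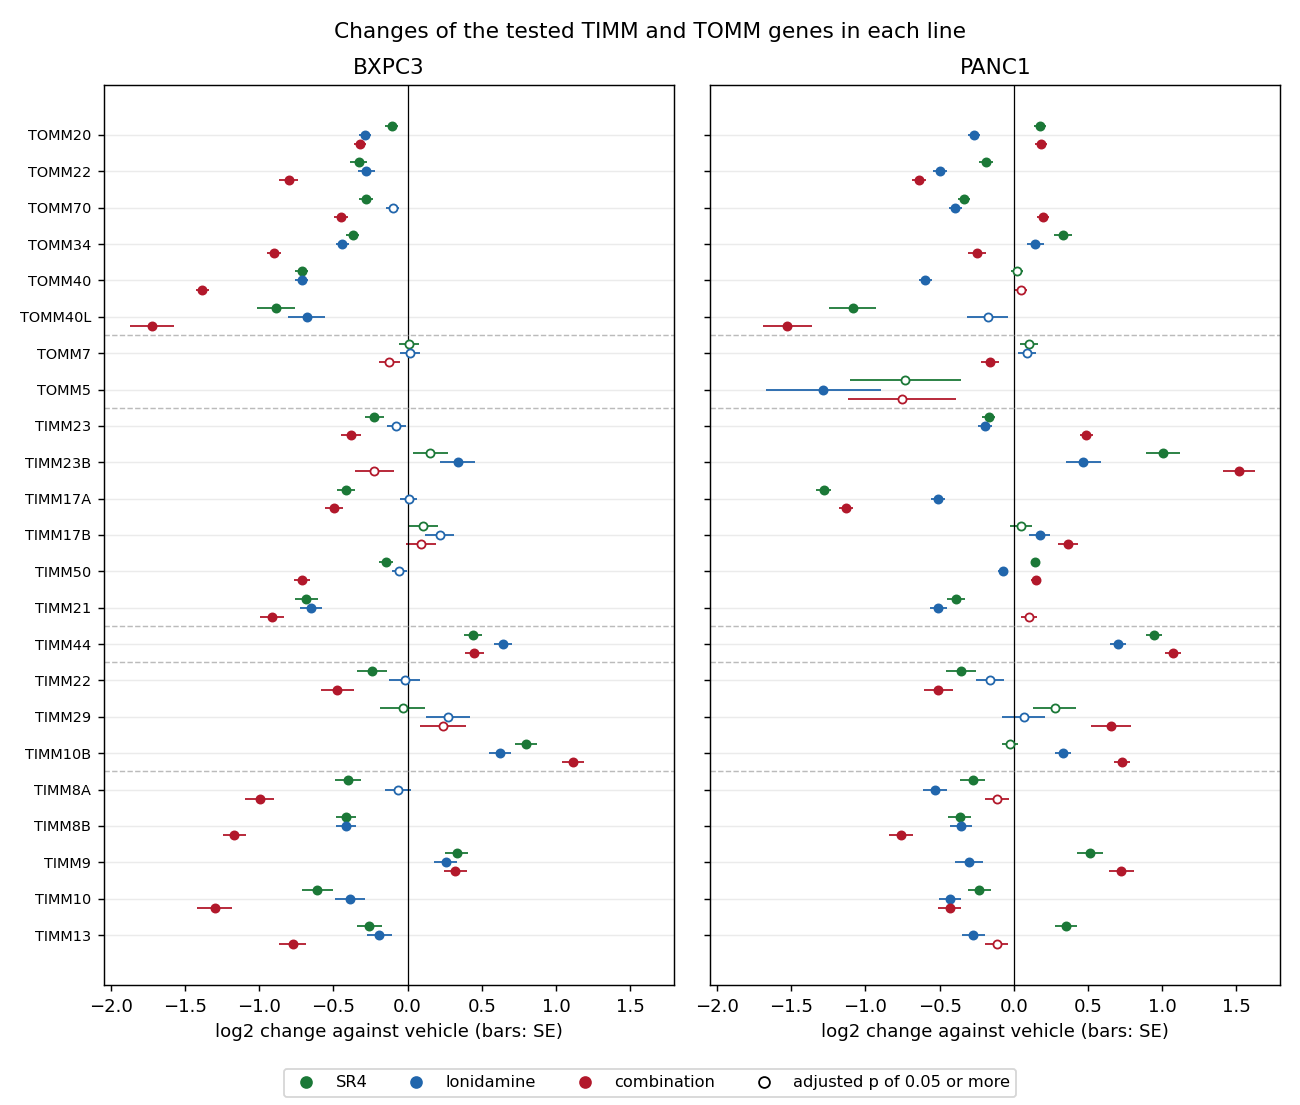
Log2 change against vehicle (x axis) of the 22 tested members in BXPC3 and 23 in PANC1, with the SE of edgeR's fit as bars and filled points for an adjusted p under 0.05. The combination points lie furthest left for TOMM40, TOMM40L, TIMM8A, TIMM8B and TIMM10 in BXPC3, while TIMM44 lies right of 0 for every treatment in both lines.

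Promoters of mitochondrial genes often carry sites for the transcription factors NRF1 and for GABP, an ETS factor, and 300 bases around the RefSeq start of each gene were therefore searched on both strands. RefSeq promoters (GRCh38.p14) matched 23 of the 25 members. The ETS letters CCGGAAGT were present in 6 of 23, TIMM10, TIMM10B, TIMM29, TOMM20, TOMM6 and TOMM70, and in 4.14% of 35116 promoters of the same length. The palindromic consensus motif of NRF1 was present in 0 of 23 members and 1.24% of all promoters, and the same motif with its sixth base free, which includes the former, in 5 of 23 and 5.78%. TGATGNAA, the composite bound by ATF4 with CHOP or C/EBP partners, was present in 1 of 23 members, TIMM22, and in 3.62% of all. Stretches of 120 bases are printed for 4 members with the ETS letters, because 2 of them (TIMM10 and TIMM10B) moved in opposite directions in BXPC3 and the other 2 (TOMM20 and TOMM70) are receptors whose combination response changed sign between the lines. Capitals mark the ETS letters on either strand and, in TOMM20, the NRF1 motif with the free base. The stretches lie at chr11:57530755-57530874, minus strand, at chr11:6481381-6481500, plus strand, at chr1:235128838-235128957, minus strand and at chr3:100401090-100401209, minus strand.
TIMM10: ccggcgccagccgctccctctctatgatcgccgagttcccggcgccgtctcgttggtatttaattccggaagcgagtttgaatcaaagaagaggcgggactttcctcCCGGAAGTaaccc
TIMM10B: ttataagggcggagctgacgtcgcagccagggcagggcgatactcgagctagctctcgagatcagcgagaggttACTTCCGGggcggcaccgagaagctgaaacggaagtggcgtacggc
TOMM20: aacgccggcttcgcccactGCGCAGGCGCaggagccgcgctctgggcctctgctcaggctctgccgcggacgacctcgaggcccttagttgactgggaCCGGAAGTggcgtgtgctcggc
TOMM70: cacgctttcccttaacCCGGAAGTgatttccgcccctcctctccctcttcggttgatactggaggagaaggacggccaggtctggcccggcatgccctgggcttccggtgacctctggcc
All 4 ETS matches lie before the start RefSeq gives but inside the gene models of the count tables, which begin further upstream. A match is a description of the sequence only.

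Among the receptors of the outer membrane, TOMM22 fell with every treatment in both lines, while with the combination TOMM20 and TOMM70 fell in BXPC3 and rose in PANC1, rises that did not pass with upper-quartile scaling. TOMM20 is the main receptor for presequences. In BXPC3, TOMM20 stood at 148, 144 and 146 CPM with vehicle, at 134, 135 and 139 with SR4, at 121, 115 and 122 with lonidamine and at 113, 119 and 117 with the combination. Every treated library lay below the lowest vehicle library, with the SR4 libraries between. In PANC1, TOMM20 stood at 209, 217 and 203 CPM with vehicle, at 236, 249 and 231 with SR4, at 164, 186 and 181 with lonidamine and at 229.9, 234 and 235 with the combination. Here the SR4 and combination libraries lay above all vehicle libraries and the lonidamine libraries below them. TOMM20 in BXPC3 fell by 0.11 ± 0.041 with SR4, 0.29 ± 0.042 with lonidamine and 0.32 ± 0.043 with the combination on the log2 scale (SE, adjusted p at most 0.0249). TOMM20 in PANC1 fell by 0.27 ± 0.042 with lonidamine and rose by 0.18 ± 0.041 with SR4 and 0.18 ± 0.041 with the combination on the log2 scale (SE, adjusted p at most 4.00e-04). The SR4 call in BXPC3 was lost in 5 of 12 alternatives, with the replicate block and upper-quartile scaling and without BXPC3 SR4 replicate 1 or 2 or BXPC3 vehicle replicate 1. The combination call in PANC1 was lost in 1 of 12 alternatives, with upper-quartile scaling.

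TOMM22, the central receptor that also holds the complex together, kept 1 direction. In BXPC3, TOMM22 stood at 79.3, 74.3 and 75.4 CPM with vehicle, at 63.7, 60.8 and 58.6 with SR4, at 63.9, 65.1 and 59.6 with lonidamine and at 45.8, 45.9 and 39.5 with the combination. In PANC1, TOMM22 stood at 109, 106 and 107 CPM with vehicle, at 96.3, 101 and 89.0 with SR4, at 79.2, 76.0 and 77.4 with lonidamine and at 69.7, 65.6 and 67.6 with the combination. In both lines the groups did not overlap with vehicle, and the combination libraries were the lowest. TOMM22 in BXPC3 fell by 0.33 ± 0.058 with SR4, 0.28 ± 0.058 with lonidamine and 0.80 ± 0.062 with the combination on the log2 scale (SE, adjusted p at most 1.41e-04). TOMM22 in PANC1 fell by 0.19 ± 0.048 with SR4, 0.50 ± 0.048 with lonidamine and 0.64 ± 0.049 with the combination on the log2 scale (SE, adjusted p at most 0.00125). TOMM70, which receives carrier precursors together with cytosolic chaperones, behaved otherwise. In BXPC3, TOMM70 stood at 161, 159.7 and 174 CPM with vehicle, at 132, 139 and 139 with SR4, at 156, 159 and 145 with lonidamine and at 126, 118 and 118 with the combination. All treated libraries lay below the vehicle libraries, lonidamine by little. In PANC1, TOMM70 stood at 209.8, 204 and 204 CPM with vehicle, at 160.0, 161 and 171 with SR4, at 156, 168 and 154 with lonidamine and at 235, 233 and 223 with the combination. In PANC1 the single treatments lay below vehicle without overlap and the combination lay above it. TOMM70 in BXPC3 fell by 0.28 ± 0.046 with SR4 and 0.45 ± 0.047 with the combination on the log2 scale (SE, adjusted p at most 5.88e-06), while -0.10 ± 0.046 with lonidamine did not pass (adjusted p = 0.0525). TOMM70 in PANC1 fell by 0.34 ± 0.042 with SR4 and 0.39 ± 0.041 with lonidamine and rose by 0.19 ± 0.040 with the combination on the log2 scale (SE, adjusted p at most 8.60e-05). The PANC1 combination call was lost in 1 of 12 alternatives, with upper-quartile scaling.

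TOMM34, a mainly cytosolic co-chaperone of precursor proteins, was the receptor-side member with the widest gap between the lines. In BXPC3, TOMM34 stood at 172, 158 and 157 CPM with vehicle, at 129, 124 and 126 with SR4, at 121, 120.5 and 117 with lonidamine and at 90.4, 83.4 and 86.6 with the combination. In PANC1, TOMM34 stood at 41.8, 46.1 and 45.2 CPM with vehicle, at 55.4, 58.3 and 54.6 with SR4, at 49.6, 48.6 and 51.2 with lonidamine and at 35.9, 37.9 and 36.0 with the combination. In BXPC3 each treatment lay below vehicle and the combination lowest. In PANC1 both single treatments lay above vehicle and the combination below it. TOMM34 in BXPC3 fell by 0.37 ± 0.044 with SR4, 0.44 ± 0.045 with lonidamine and 0.90 ± 0.047 with the combination on the log2 scale (SE, adjusted p at most 4.68e-08). TOMM34 in PANC1 fell by 0.25 ± 0.061 with the combination and rose by 0.33 ± 0.059 with SR4 and 0.14 ± 0.058 with lonidamine on the log2 scale (SE, adjusted p at most 0.0307). The lonidamine call in PANC1 was lost in 4 of 12 alternatives, with DESeq2's test and without PANC1 lonidamine replicate 1 or 3 or PANC1 vehicle replicate 1. With vehicle its level was 162 ± 8.36 CPM in BXPC3 and 44.4 ± 2.23 CPM in PANC1 (SD, n = 3). The TOMM34 gene model shares 16906 bases with PABPC1L on the opposite strand. How strand was treated in counting is not known, so reads may have been divided between these genes.

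The channel gene TOMM40 lost more CPM than any other member in BXPC3 with the combination and in PANC1 passed with lonidamine alone. TOMM40 forms the pore through which nearly all precursors pass. In BXPC3, TOMM40 stood at 312, 305 and 288 CPM with vehicle, at 191, 174 and 188 with SR4, at 188, 188 and 175 with lonidamine and at 113, 114 and 119 with the combination. The 2 single treatments overlapped with each other, and the combination lay below both. In PANC1, TOMM40 stood at 134, 138 and 129.8 CPM with vehicle, at 141, 136 and 134 with SR4, at 90.3, 87.4 and 92.7 with lonidamine and at 135, 139 and 132 with the combination. In PANC1 the lonidamine libraries alone stood apart from vehicle. TOMM40 in BXPC3 fell by 0.71 ± 0.043 with SR4, 0.71 ± 0.044 with lonidamine and 1.38 ± 0.046 with the combination on the log2 scale (SE, adjusted p at most 7.25e-14). TOMM40 in PANC1 fell by 0.60 ± 0.044 with lonidamine on the log2 scale (SE, adjusted p = 1.38e-12), while 0.02 ± 0.042 with SR4 and 0.05 ± 0.042 with the combination did not pass (adjusted p = 0.649 and 0.309). TOMM40L, its less expressed paralog, fell in both lines. In BXPC3, TOMM40L stood at 16.5, 16.3 and 13.9 CPM with vehicle, at 7.21, 9.12 and 9.01 with SR4, at 10.8, 8.69 and 9.59 with lonidamine and at 4.80, 5.32 and 3.95 with the combination. In PANC1, TOMM40L stood at 11.5, 13.1 and 10.1 CPM with vehicle, at 5.95, 4.45 and 5.97 with SR4, at 10.8, 10.9 and 9.52 with lonidamine and at 3.79, 3.12 and 4.83 with the combination. All treated groups lay below vehicle in BXPC3, whereas in PANC1 lonidamine overlapped with vehicle. TOMM40L in BXPC3 fell by 0.89 ± 0.13 with SR4, 0.68 ± 0.13 with lonidamine and 1.72 ± 0.15 with the combination on the log2 scale (SE, adjusted p at most 3.29e-05). TOMM40L in PANC1 fell by 1.09 ± 0.16 with SR4 and 1.53 ± 0.16 with the combination on the log2 scale (SE, adjusted p at most 7.18e-07), while -0.18 ± 0.14 with lonidamine did not pass (adjusted p = 0.257).

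**Figure D2:**
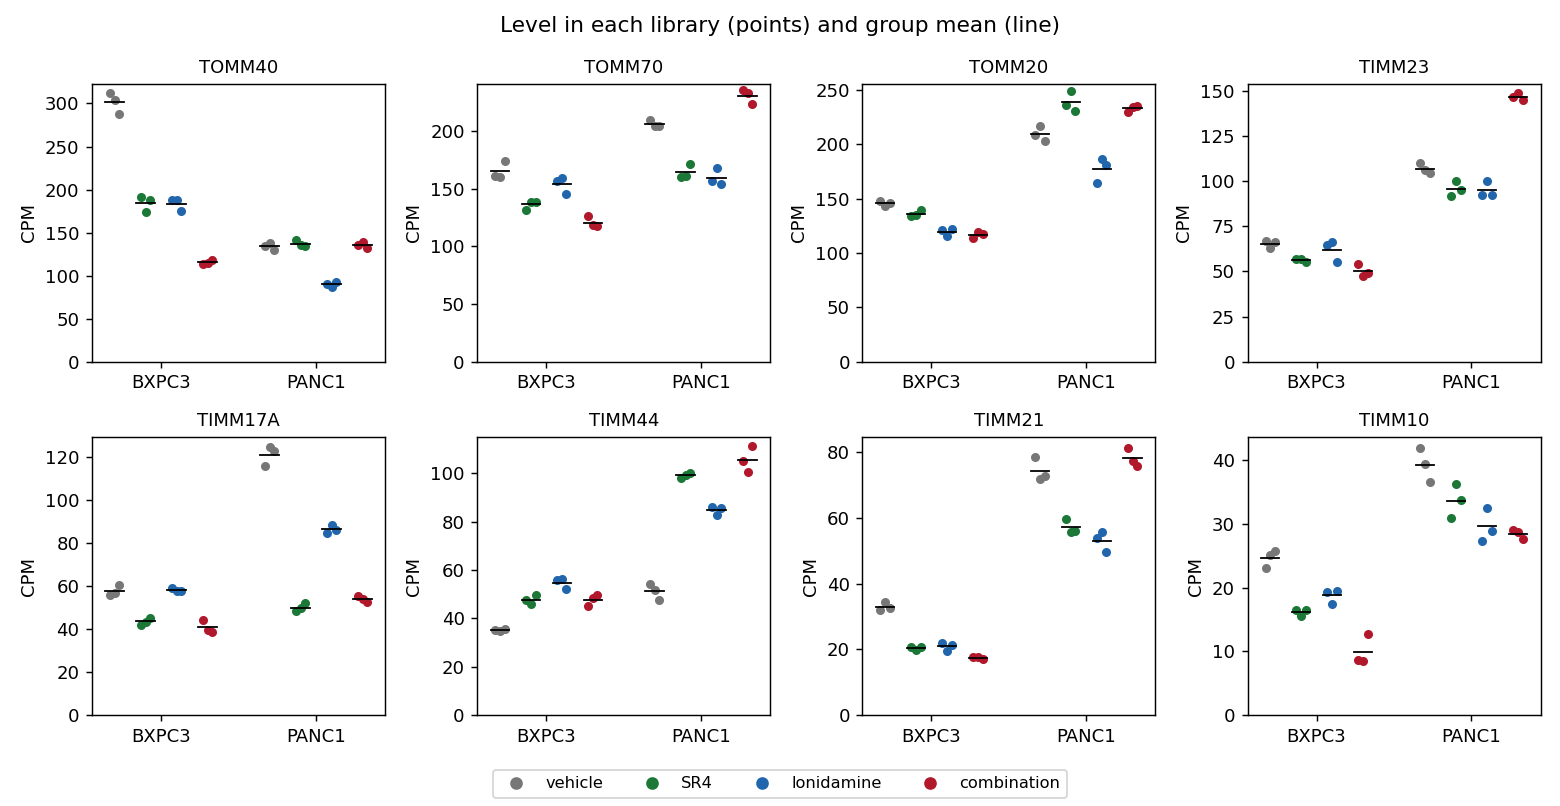
CPM in each library (points) with the group mean (line) for 8 members, by line and treatment, on axes that start at 0. TOMM40 steps down from about 305 to 114 CPM (median libraries) in BXPC3, and TIMM23, TOMM70 and TIMM21 are at their highest with the combination in PANC1.

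The small subunit TOMM7, which tunes the assembly of the outer membrane complex, stood at 61.1, 57.4 and 58.9 CPM with vehicle, at 59.0, 56.7 and 63.7 with SR4, at 66.2, 59.8 and 53.2 with lonidamine and at 51.9, 52.0 and 58.5 with the combination in BXPC3. No group separated from vehicle there. In PANC1, TOMM7 stood at 59.0, 64.0 and 61.2 CPM with vehicle, at 63.1, 72.4 and 63.4 with SR4, at 64.9, 66.2 and 67.7 with lonidamine and at 55.3, 56.0 and 49.5 with the combination. TOMM7 in PANC1 fell by 0.16 ± 0.061 with the combination on the log2 scale (SE, adjusted p = 0.0154), while 0.10 ± 0.060 with SR4 and 0.09 ± 0.059 with lonidamine did not pass (adjusted p = 0.131 and 0.186). That call was lost in 3 of 12 alternatives, with no low-count filter and without PANC1 combination replicate 3 or PANC1 vehicle replicate 2. In PANC1, TOMM5 stood at 1.02, 1.73 and 1.81 CPM with vehicle, at 1.11, 0.517 and 1.09 with SR4, at 0.623, 0.601 and 0.646 with lonidamine and at 0.576, 1.19 and 0.877 with the combination. These rest on a handful of counts a library. TOMM5 in PANC1 fell by 1.28 ± 0.39 with lonidamine on the log2 scale (SE, adjusted p = 0.00473), while -0.73 ± 0.37 with SR4 and -0.75 ± 0.36 with the combination did not pass (adjusted p = 0.0808 and 0.0589).

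Of the 6 genes of the presequence translocase TIM23, 4 fell and 0 rose in BXPC3 with SR4 and again with the combination, beside 33.9% and 39.5% of all genes lower. With lonidamine 1 of 6 rose and 1 fell there. With the combination in PANC1, 4 of 6 rose and 1 fell (all genes: 40.1% and 40.9%). TIMM23 is the channel subunit. In BXPC3, TIMM23 stood at 67.0, 63.1 and 66.3 CPM with vehicle, at 56.7, 56.6 and 55.5 with SR4, at 64.8, 66.4 and 55.0 with lonidamine and at 54.2, 47.3 and 49.0 with the combination. In PANC1, TIMM23 stood at 109.9, 106 and 105 CPM with vehicle, at 91.9, 100.1 and 94.8 with SR4, at 92.5, 100.1 and 92.4 with lonidamine and at 146, 149 and 145 with the combination. In PANC1 the single treatments lay just below vehicle and the combination well above it, with no overlap. TIMM23 in BXPC3 fell by 0.22 ± 0.064 with SR4 and 0.38 ± 0.066 with the combination on the log2 scale (SE, adjusted p at most 0.00306), while -0.07 ± 0.063 with lonidamine did not pass (adjusted p = 0.301). TIMM23 in PANC1 fell by 0.17 ± 0.046 with SR4 and 0.19 ± 0.045 with lonidamine and rose by 0.49 ± 0.044 with the combination on the log2 scale (SE, adjusted p at most 0.00177).

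TIMM23B is a near-identical copy of TIMM23, and its model lies opposite PARG, so reads may have been divided among these genes. In BXPC3, TIMM23B stood at 10.1, 9.42 and 10.2 CPM with vehicle, at 11.6, 10.8 and 10.7 with SR4, at 12.5, 11.5 and 13.5 with lonidamine and at 7.44, 8.44 and 9.52 with the combination. The SR4 and lonidamine libraries lay above vehicle, and the combination overlapped with it. In PANC1, TIMM23B stood at 9.88, 13.3 and 15.2 CPM with vehicle, at 25.7, 23.8 and 27.9 with SR4, at 18.7, 16.6 and 18.6 with lonidamine and at 33.4, 35.5 and 38.2 with the combination. In PANC1 every treated library stood above every vehicle library. TIMM23B in BXPC3 rose by 0.34 ± 0.12 with lonidamine on the log2 scale (SE, adjusted p = 0.0141), while 0.15 ± 0.12 with SR4 and -0.22 ± 0.13 with the combination did not pass (adjusted p = 0.263 and 0.117). TIMM23B in PANC1 rose by 1.01 ± 0.11 with SR4, 0.47 ± 0.12 with lonidamine and 1.52 ± 0.11 with the combination on the log2 scale (SE, adjusted p at most 0.00101). The lonidamine call in BXPC3 was lost in 3 of 12 alternatives, with DESeq2's test and without BXPC3 lonidamine replicate 3 or BXPC3 vehicle replicate 2. In PANC1 the lonidamine change was 0.31 without PANC1 vehicle replicate 1, and still passed. The ratio of TIMM23 to TIMM23B counts was 8.67 ± 2.20 with vehicle and 4.12 ± 0.294 with the combination in PANC1 (SD, n = 3).

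TIMM17A, a structural subunit of TIM23 whose protein is known to be short-lived under stress, fell in RNA, while no fall of its paralog TIMM17B passed. Protein was not measured here. In BXPC3, TIMM17A stood at 56.1, 57.1 and 60.8 CPM with vehicle, at 41.9, 43.6 and 45.5 with SR4, at 59.1, 58.0 and 57.8 with lonidamine and at 44.4, 39.9 and 38.8 with the combination. In PANC1, TIMM17A stood at 116, 125 and 123 CPM with vehicle, at 48.4, 50.1 and 52.0 with SR4, at 85.0, 88.6 and 86.2 with lonidamine and at 55.6, 54.2 and 52.9 with the combination. SR4 and the combination lay below vehicle without overlap in both lines, and lonidamine did so in PANC1. TIMM17A in BXPC3 fell by 0.41 ± 0.060 with SR4 and 0.50 ± 0.062 with the combination on the log2 scale (SE, adjusted p at most 9.97e-07), while 0.01 ± 0.058 with lonidamine did not pass (adjusted p = 0.904). TIMM17A in PANC1 fell by 1.28 ± 0.050 with SR4, 0.51 ± 0.045 with lonidamine and 1.13 ± 0.048 with the combination on the log2 scale (SE, adjusted p at most 8.32e-11). TIMM17B ranged from 16.7 to 22.2 CPM over the 12 BXPC3 libraries, where no treatment passed. TIMM17B in PANC1 rose by 0.17 ± 0.070 with lonidamine and 0.37 ± 0.069 with the combination on the log2 scale (SE, adjusted p at most 0.0286), while 0.05 ± 0.073 with SR4 did not pass (adjusted p = 0.576). The lonidamine call was lost in 5 of 12 alternatives, with DESeq2's test and without PANC1 lonidamine replicate 1 or 3 or PANC1 vehicle replicate 1 or 2. TIMM17A counts over TIMM17B counts went in PANC1 from 3.58 ± 0.205 with vehicle to 2.24 ± 0.219 with lonidamine, 1.43 ± 0.126 with SR4 and 1.27 ± 0.0104 with the combination (SD, n = 3). In BXPC3 these ratios were 3.24 ± 0.444, 2.79 ± 0.156, 2.25 ± 0.238 and 2.15 ± 0.290.

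**Figure D3:**
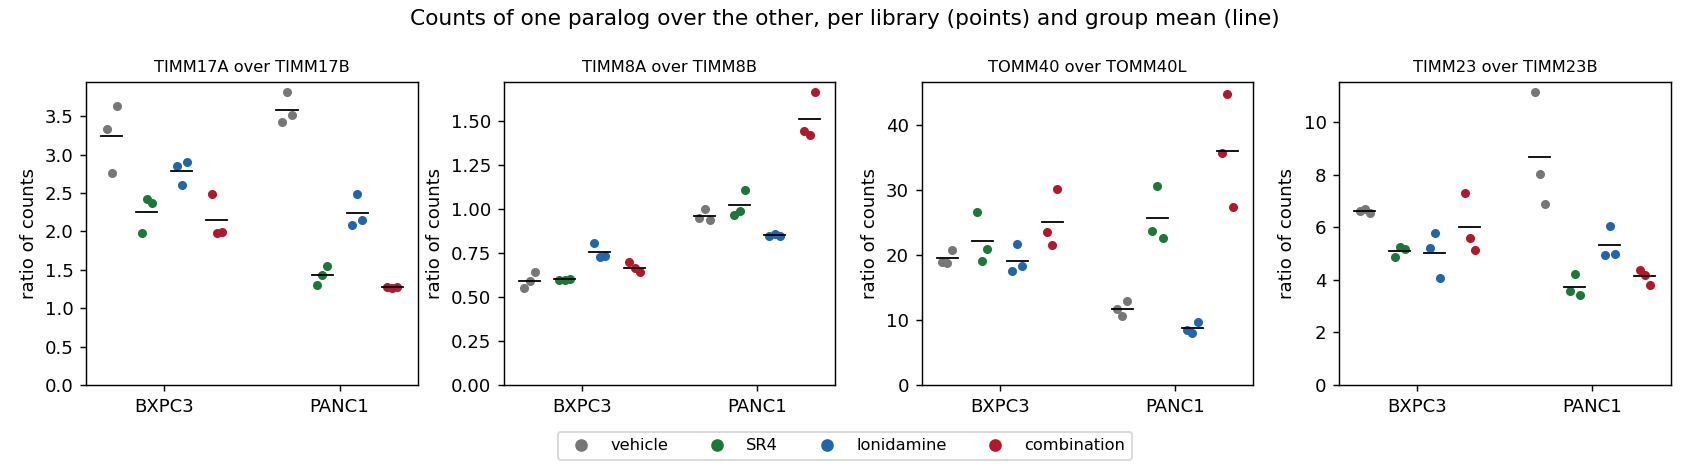
Ratio of counts of one paralog over the other in each library (points) with the group mean (line), by line and treatment, on axes that start at 0. The TIMM17A over TIMM17B ratio is lowest with the combination in PANC1, from 1.26 to 1.28, and TOMM40 over TOMM40L is highest there, from 27.4 to 44.6.

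TIMM21, which links TIM23 to the outer membrane complex and to respiratory chain assembly, fell with each compound alone in both lines. In BXPC3, TIMM21 stood at 31.9, 34.3 and 32.5 CPM with vehicle, at 20.9, 19.9 and 20.9 with SR4, at 21.9, 19.5 and 21.3 with lonidamine and at 17.7, 17.6 and 17.0 with the combination. In PANC1, TIMM21 stood at 78.3, 71.8 and 72.6 CPM with vehicle, at 59.7, 55.7 and 55.8 with SR4, at 53.9, 55.8 and 49.5 with lonidamine and at 81.2, 77.1 and 75.7 with the combination. In PANC1 the single treatments lay below vehicle, and the combination overlapped with it at the upper end. TIMM21 in BXPC3 fell by 0.68 ± 0.076 with SR4, 0.65 ± 0.077 with lonidamine and 0.91 ± 0.081 with the combination on the log2 scale (SE, adjusted p at most 3.09e-08). TIMM21 in PANC1 fell by 0.39 ± 0.058 with SR4 and 0.51 ± 0.057 with lonidamine on the log2 scale (SE, adjusted p at most 1.05e-06), while 0.10 ± 0.055 with the combination did not pass (adjusted p = 0.0830).

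TIMM50, the receptor subunit of TIM23 that meets presequences in the intermembrane space (chromosome 19, 39480412 to 39492722, plus strand), set the lines apart before any treatment. In BXPC3, TIMM50 stood at 109, 109 and 99.9 CPM with vehicle, at 96.9, 97.9 and 93.7 with SR4, at 104, 97.1 and 104 with lonidamine and at 66.0, 61.4 and 66.2 with the combination. In PANC1, TIMM50 stood at 1216, 1174 and 1167 CPM with vehicle, at 1284, 1388 and 1286 with SR4, at 1139, 1147 and 1149 with lonidamine and at 1278, 1306 and 1279 with the combination. Each PANC1 library stood far above any BXPC3 library. With vehicle the difference was 3.50 ± 0.041 on the log2 scale, or 11.3-fold (SE, n = 3 a line, adjusted p = 1.34e-41 by edgeR's quasi-likelihood test). TIMM50 made up 7.23% of the members' summed CPM in BXPC3 vehicle libraries and 45.5% in those of PANC1. Per kilobase of gene model it stood at 19.4 CPM per kb in BXPC3, below TOMM40, TOMM34, TIMM23 and others, and at 217 CPM per kb in PANC1, above every other member.

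Most of the gene's neighbours on chromosome 19, looked up after this value was seen, were also higher in PANC1. Of 19 tested genes that start within 0.5 Mb of TIMM50, 18 were higher in PANC1 by at least 1 on the log2 scale, with a median of 3.11 beside -0.01 over all tested genes. The exception, GMFG, differed by -1.51 ± 0.50, at low means of 1.34 CPM in BXPC3 and 0.460 CPM in PANC1. Within 1 Mb it was 37 of 45 called higher, 7 called lower, and a median of 2.38. Among them PAF1, a subunit of an RNA polymerase II elongation complex, differed by 3.84 ± 0.038, SUPT5H, an elongation factor, by 2.93 ± 0.031, and the kinase gene DYRK1B by 3.50 ± 0.076. The ribosomal protein gene RPS16 differed by 2.99 ± 0.037, the nucleolar methyltransferase gene FBL by 3.37 ± 0.035, and the kinase gene AKT2, which starts 0.75 Mb away, by 3.58 ± 0.042. C19orf47, further out at 0.839 Mb in the same direction, differed by -0.33 ± 0.096. PANC1 is known for an amplified stretch of chromosome 19 that holds AKT2 and PAF1, and the part of DNA copy number in these levels was not tested. For the other 22 members in the joint fit, the median of genes within 1 Mb lay between -1.27 and 1.19.

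**Figure D4:**
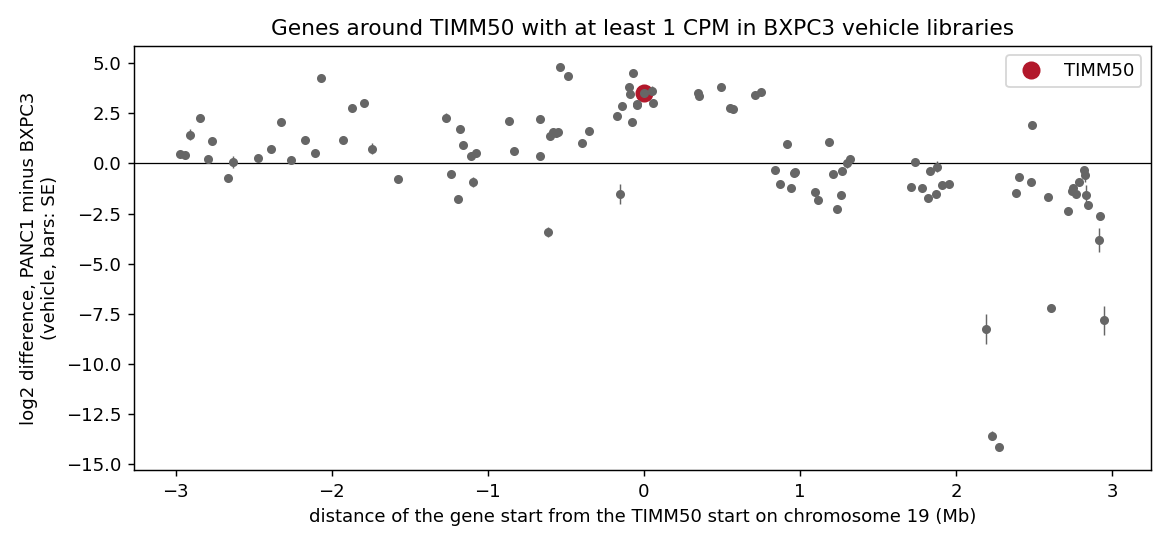
Log2 difference between vehicle libraries of PANC1 and BXPC3 (y axis, SE as bars) for tested genes with at least 1 CPM in BXPC3, by distance of their start from that of TIMM50 in Mb (x axis). TIMM50, at 3.50, lies in a run of genes mostly above 0 that ends on the right after AKT2 at 0.75 Mb. GMFG at -1.51 and RINL at -3.43 lie below 0 to the left of TIMM50, as do others further out, C19orf33 at -1.79 among them.

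The treatments moved TIMM50 far less than the lines differed. TIMM50 in BXPC3 fell by 0.14 ± 0.049 with SR4 and 0.71 ± 0.053 with the combination on the log2 scale (SE, adjusted p at most 0.0121), while -0.06 ± 0.049 with lonidamine did not pass (adjusted p = 0.331). TIMM50 in PANC1 fell by 0.07 ± 0.032 with lonidamine and rose by 0.14 ± 0.032 with SR4 and 0.15 ± 0.032 with the combination on the log2 scale (SE, adjusted p at most 0.0412). The combination libraries of BXPC3 lay well below vehicle, and those of PANC1 above it. The SR4 call in BXPC3 was lost in 5 of 12 alternatives, with the replicate block and upper-quartile scaling and without the unnumbered BXPC3 SR4 library or BXPC3 vehicle replicate 1 or 2. The lonidamine call in PANC1 was lost in 8 of 12 alternatives, with DESeq2 size factors, no low-count filter and upper-quartile scaling and without PANC1 lonidamine replicate 1 or 2 or 3 or PANC1 vehicle replicate 1 or 2, and the combination call there was lost in 1 of 12 alternatives, with upper-quartile scaling.

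TIMM44, the peripheral subunit that tethers the HSPA9 motor to the TIM23 channel, rose with every treatment in both lines. In BXPC3, TIMM44 stood at 35.2, 34.7 and 35.5 CPM with vehicle, at 47.6, 46.1 and 49.6 with SR4, at 55.7, 56.5 and 52.1 with lonidamine and at 45.3, 48.5 and 49.6 with the combination. In PANC1, TIMM44 stood at 54.3, 51.9 and 47.5 CPM with vehicle, at 97.9, 99.2 and 100.2 with SR4, at 86.2, 82.8 and 85.5 with lonidamine and at 105, 100.4 and 111 with the combination. Every treated library lay above every vehicle library of its line. TIMM44 in BXPC3 rose by 0.44 ± 0.062 with SR4, 0.64 ± 0.061 with lonidamine and 0.45 ± 0.063 with the combination on the log2 scale (SE, adjusted p at most 6.59e-07). TIMM44 in PANC1 rose by 0.94 ± 0.055 with SR4, 0.70 ± 0.055 with lonidamine and 1.07 ± 0.054 with the combination on the log2 scale (SE, adjusted p at most 5.38e-12). In BXPC3 lonidamine alone gave the highest group, and the combination stood 0.01 ± 0.061 from SR4, which did not pass. Partners of the motor moved with it in part. HSPA9, the mitochondrial HSP70 that pulls precursors in, changed by 0.39 ± 0.032, 0.43 ± 0.032 and 0.52 ± 0.032 with SR4, with lonidamine and with both in BXPC3, and by 1.17 ± 0.031, 0.67 ± 0.031 and 1.27 ± 0.031 in PANC1, and rose in all 6. GRPEL2, a nucleotide exchange factor for HSPA9, changed by 0.62 ± 0.060, 0.84 ± 0.059 and 1.07 ± 0.059 and by 1.17 ± 0.065, 0.89 ± 0.065 and 1.33 ± 0.063 in the same order, and also rose in all 6. Its paralog GRPEL1 changed by -0.36 ± 0.053, 0.25 ± 0.050 and -0.29 ± 0.054 in BXPC3 and by -0.26 ± 0.067, -0.51 ± 0.067 and -0.38 ± 0.067 in PANC1, lower in 5 of 6 and higher with lonidamine in BXPC3. Of the 9 motor and carrier-pathway partners, 2 rose and 4 fell in BXPC3 with the combination (all genes: 39.7% and 39.5%), and 5 rose and 3 fell in PANC1 (all genes: 40.1% and 40.9%).

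The carrier translocase TIM22 showed an unequal response of its subunits. TIMM22, its channel, fell with SR4 and with the combination. In BXPC3, TIMM22 stood at 23.7, 22.1 and 18.4 CPM with vehicle, at 16.6, 19.7 and 18.4 with SR4, at 19.7, 23.4 and 20.1 with lonidamine and at 15.2, 14.2 and 16.7 with the combination. In PANC1, TIMM22 stood at 23.2, 18.5 and 20.3 CPM with vehicle, at 16.4, 15.5 and 16.8 with SR4, at 18.3, 19.2 and 19 with lonidamine and at 13.9, 15.6 and 13.2 with the combination. The combination lay below vehicle without overlap in both lines, and SR4 did so in PANC1. TIMM22 in BXPC3 fell by 0.24 ± 0.10 with SR4 and 0.47 ± 0.11 with the combination on the log2 scale (SE, adjusted p at most 0.0450), while -0.02 ± 0.10 with lonidamine did not pass (adjusted p = 0.873). TIMM22 in PANC1 fell by 0.36 ± 0.099 with SR4 and 0.51 ± 0.098 with the combination on the log2 scale (SE, adjusted p at most 0.00221), while -0.16 ± 0.094 with lonidamine did not pass (adjusted p = 0.135). The SR4 call in BXPC3 was lost in 8 of 12 alternatives, with DESeq2's test, a fit of only the groups compared, the replicate block and upper-quartile scaling and without BXPC3 SR4 replicate 1 or the unnumbered BXPC3 SR4 library or BXPC3 vehicle replicate 1 or 2, where the change lay between -0.34 and -0.16. TIMM29, a metazoan subunit of TIM22, ranged from 5.70 to 12.8 CPM over all libraries and passed once, with the combination in PANC1, by 0.65 ± 0.14 (SE, adjusted p = 9.38e-05).

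TIMM10B, which docks the small TIM chaperones on TIM22, rose in BXPC3 by more than any other member with SR4 and with the combination. In BXPC3, TIMM10B stood at 28.4, 26.9 and 32.1 CPM with vehicle, at 51.5, 48.2 and 53.0 with SR4, at 44.4, 44.7 and 45.6 with lonidamine and at 69.7, 60.0 and 59.6 with the combination. In PANC1, TIMM10B stood at 55.0, 50.7 and 54.9 CPM with vehicle, at 53.1, 52.2 and 53.4 with SR4, at 66.2, 69.5 and 69.5 with lonidamine and at 90.4, 87.0 and 83.0 with the combination. In BXPC3 all treated groups lay above vehicle and the combination highest. In PANC1 SR4 overlapped with vehicle, while lonidamine and the combination lay above. TIMM10B in BXPC3 rose by 0.80 ± 0.074 with SR4, 0.62 ± 0.076 with lonidamine and 1.12 ± 0.073 with the combination on the log2 scale (SE, adjusted p at most 5.15e-08). TIMM10B in PANC1 rose by 0.33 ± 0.053 with lonidamine and 0.73 ± 0.052 with the combination on the log2 scale (SE, adjusted p at most 4.24e-06), while -0.03 ± 0.057 with SR4 did not pass (adjusted p = 0.702). Its gene model (chromosome 11, 6481447 to 6508978, plus strand) shares 11719 bases of the same strand with DNHD1, so reads of either gene may have been counted for the other.

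The small TIM chaperones, which carry hydrophobic precursors across the intermembrane space as hexamers, fell in BXPC3 with the combination except for TIMM9. TIMM10 is the usual hexamer partner of TIMM9. In BXPC3, TIMM10 stood at 23.0, 25 and 25.8 CPM with vehicle, at 16.5, 15.5 and 16.5 with SR4, at 19.3, 17.5 and 19.5 with lonidamine and at 8.69, 8.44 and 12.8 with the combination. In PANC1, TIMM10 stood at 41.8, 39.3 and 36.5 CPM with vehicle, at 30.8, 36.2 and 33.7 with SR4, at 27.3, 32.4 and 28.9 with lonidamine and at 29.1, 28.6 and 27.6 with the combination. All treated groups lay below vehicle in both lines. TIMM10 in BXPC3 fell by 0.61 ± 0.10 with SR4, 0.39 ± 0.10 with lonidamine and 1.30 ± 0.12 with the combination on the log2 scale (SE, adjusted p at most 0.00168). TIMM10 in PANC1 fell by 0.23 ± 0.076 with SR4, 0.43 ± 0.075 with lonidamine and 0.43 ± 0.076 with the combination on the log2 scale (SE, adjusted p at most 0.00782). The SR4 call in PANC1 was lost in 2 of 12 alternatives, without PANC1 SR4 replicate 1 or PANC1 vehicle replicate 1. TIMM9 went the other way in most comparisons, from 30.9 to 34.0 CPM with vehicle in BXPC3 and 24.6 to 32.0 CPM in PANC1. TIMM9 in BXPC3 rose by 0.33 ± 0.074 with SR4, 0.26 ± 0.076 with lonidamine and 0.32 ± 0.076 with the combination on the log2 scale (SE, adjusted p at most 0.00410). TIMM9 in PANC1 fell by 0.30 ± 0.094 with lonidamine and rose by 0.51 ± 0.088 with SR4 and 0.72 ± 0.085 with the combination on the log2 scale (SE, adjusted p at most 0.00581). The lonidamine call in PANC1 was lost in 1 of 12 alternatives, without PANC1 vehicle replicate 1, where the change was -0.20.

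TIMM8A and TIMM13 form another kind of hexamer, and loss of TIMM8A is known to cause a deafness-dystonia syndrome. In BXPC3, TIMM8A stood at 21.3, 24.2 and 25.4 CPM with vehicle, at 17.2, 18.1 and 18.5 with SR4, at 23.3, 22.4 and 21.9 with lonidamine and at 12.9, 11.2 and 11.3 with the combination. In PANC1, TIMM8A stood at 35.1, 33.3 and 31.6 CPM with vehicle, at 25, 28.6 and 29.6 with SR4, at 21.0, 25.5 and 23.8 with lonidamine and at 29.2, 28.9 and 32.5 with the combination. SR4 and the combination lay below vehicle in BXPC3, and the 2 single treatments did so in PANC1, where the combination overlapped with vehicle. TIMM8A in BXPC3 fell by 0.40 ± 0.089 with SR4 and 1.0 ± 0.099 with the combination on the log2 scale (SE, adjusted p at most 2.96e-04), while -0.07 ± 0.086 with lonidamine did not pass (adjusted p = 0.514). TIMM8A in PANC1 fell by 0.28 ± 0.083 with SR4 and 0.53 ± 0.083 with lonidamine on the log2 scale (SE, adjusted p at most 0.00413), while -0.11 ± 0.080 with the combination did not pass (adjusted p = 0.196). Its paralog TIMM8B fell throughout. The TIMM8B gene model shares 351 bases with C11orf57 and 26 with SDHD on the opposite strand, so reads there may have been divided between these genes. In BXPC3, TIMM8B stood at 38.8, 40.8 and 39.6 CPM with vehicle, at 28.8, 30.2 and 30.6 with SR4, at 28.8, 30.7 and 29.7 with lonidamine and at 18.5, 16.9 and 17.5 with the combination. In PANC1, TIMM8B stood at 37.0, 33.3 and 33.6 CPM with vehicle, at 25.9, 28.9 and 26.6 with SR4, at 24.8, 29.6 and 28.2 with lonidamine and at 20.3, 20.3 and 19.5 with the combination. The combination group was the lowest in both lines. TIMM8B in BXPC3 fell by 0.42 ± 0.067 with SR4, 0.41 ± 0.068 with lonidamine and 1.17 ± 0.076 with the combination on the log2 scale (SE, adjusted p at most 6.04e-06). TIMM8B in PANC1 fell by 0.36 ± 0.078 with SR4, 0.35 ± 0.075 with lonidamine and 0.76 ± 0.080 with the combination on the log2 scale (SE, adjusted p at most 1.57e-04). Counts of TIMM8A over TIMM8B went from 0.963 ± 0.0321 with vehicle to 1.51 ± 0.134 with the combination in PANC1 (SD, n = 3).

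TIMM13 differed in direction between the lines with SR4. Its gene model shares 257 bases of the same strand with LMNB2, so reads there may have been counted for either gene. In BXPC3, TIMM13 stood at 35.6, 31.0 and 31.3 CPM with vehicle, at 27.4, 26.0 and 28.7 with SR4, at 28.0, 28.8 and 28.9 with lonidamine and at 17.8, 17.1 and 22.2 with the combination. In PANC1, TIMM13 stood at 32.7, 29.2 and 29.8 CPM with vehicle, at 38.1, 41.2 and 38.4 with SR4, at 23.6, 27.1 and 26.5 with lonidamine and at 29.1, 25.9 and 27.7 with the combination. The treated groups lay below vehicle in BXPC3, and the SR4 libraries lay above it in PANC1. TIMM13 in BXPC3 fell by 0.26 ± 0.084 with SR4, 0.19 ± 0.084 with lonidamine and 0.77 ± 0.092 with the combination on the log2 scale (SE, adjusted p at most 0.0473). TIMM13 in PANC1 fell by 0.27 ± 0.077 with lonidamine and rose by 0.35 ± 0.074 with SR4 on the log2 scale (SE, adjusted p at most 0.00264), while -0.12 ± 0.076 with the combination did not pass (adjusted p = 0.161). In BXPC3 the SR4 call was lost in 1 of 12 alternatives, without BXPC3 vehicle replicate 1. The lonidamine call was lost there in 7 of 12 alternatives, with DESeq2's test, the replicate block and upper-quartile scaling and without BXPC3 lonidamine replicate 1 or 2 or 3 or BXPC3 vehicle replicate 1, and its change was -0.12 without that vehicle library.

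Before treatment, PANC1 stood above BXPC3 for 14 of 23 members and below it for 5, beside 84.3% of all genes called (41.3% higher and 43.0% lower). All 6 TIM23 genes were higher in PANC1, among them TIMM21 by 1.19 ± 0.061 and TIMM17A by 1.08 ± 0.050 on the log2 scale (SE). TOMM34 differed by -1.86 ± 0.050 and TOMM40 by -1.16 ± 0.043, both below BXPC3. The TIMM23B call was lost in 1 of 12 alternatives, without PANC1 vehicle replicate 3, that of TIMM8B in 3 of 12 alternatives, with the replicate block and upper-quartile scaling and without PANC1 vehicle replicate 2, and that of TOMM5 in 5 of 12 alternatives, with DESeq2's test and without BXPC3 vehicle replicate 2 or 3 or PANC1 vehicle replicate 2 or 3. Per kilobase the highest members in BXPC3 were TOMM40 at 83.7, TOMM34 at 78.9 and TIMM23 at 53.9 CPM per kb, and in PANC1 TIMM50 at 217, TIMM23 at 88.0 and TOMM20 at 59.3 CPM per kb.

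Responses of the lines were compared by the difference of their log2 changes in a fit of all 24 libraries. For SR4, 9 of 23 members responded higher in PANC1 and 2 lower, beside 51.2% of all genes called (26.2% and 24.9%). TIMM13, TIMM50, TOMM20 and TOMM34 fell in BXPC3 and rose in PANC1, and their differences passed. The BXPC3 falls of TIMM13, TIMM50 and TOMM20 were lost in some alternatives, as given above. How many of all genes reversed in this way was not counted. The widest differences were those of TIMM17A at -0.87 ± 0.077, TIMM23B at 0.85 ± 0.17 and TIMM10B at -0.83 ± 0.093 (SE). The TIMM10 call was lost in 1 of 18 alternatives, with the replicate block, and the TIMM21 call in 1 of 18 alternatives, with DESeq2's test. For lonidamine it was 2 higher and 6 lower, beside 41.8% (23.5% and 18.2%), and 5 in all without BXPC3 vehicle replicate 2. Among the members that passed, TOMM34 had the widest at 0.62 ± 0.071, followed by TOMM40L at 0.53 ± 0.19, whose call was lost in 6 of 18 alternatives, with DESeq2's test and without BXPC3 lonidamine replicate 2 or BXPC3 vehicle replicate 1 or 2 or PANC1 lonidamine replicate 2 or PANC1 vehicle replicate 3. The call of TIMM10B was lost in 1 of 18 alternatives, without BXPC3 vehicle replicate 2, and that of TOMM22 in 5 of 18 alternatives, with no low-count filter and without BXPC3 lonidamine replicate 2 or BXPC3 vehicle replicate 2 or 3 or PANC1 lonidamine replicate 2.

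The combination separated the lines most, with 14 members higher in PANC1 and 2 lower, beside 61.9% of all genes (31.7% and 30.2%). TIMM23B differed by 1.70 ± 0.17, TOMM40 by 1.39 ± 0.063 and TIMM21 by 0.98 ± 0.095. TIMM23, TIMM50, TOMM20 and TOMM70 fell in BXPC3 and rose in PANC1, but the rises of TIMM50, TOMM20 and TOMM70 did not pass with upper-quartile scaling. The 2 members that responded lower in PANC1 were TIMM17A, by -0.67 ± 0.077, and TIMM10B, by -0.43 ± 0.090. Both lines shared falls of TIMM10, TIMM17A, TIMM22, TIMM8B, TOMM22, TOMM34 and TOMM40L and rises of TIMM10B, TIMM44 and TIMM9. Such reversals and shared calls were not counted over all genes.

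**Figure D5:**
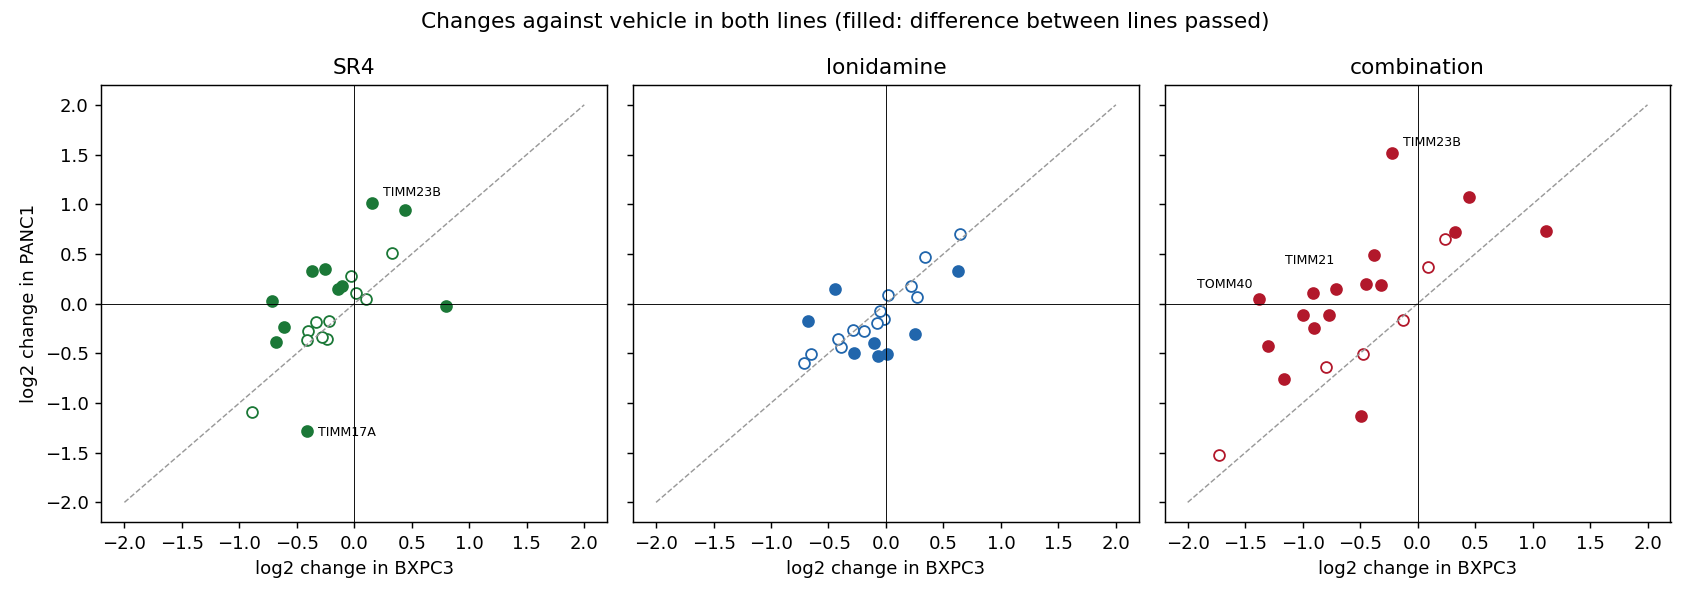
Log2 change against vehicle in BXPC3 (x axis) and PANC1 (y axis) for the 22 members tested in both lines, 1 panel a treatment, with filled points where the difference between lines passed. In the combination panel 16 points are filled, and 14 of these lie above the dashed line of equal change.

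Set against each compound alone, the combination lowered most members in BXPC3. Against SR4 it gave 1 of 22 tested members higher and 14 lower, beside 60.8% of all genes called (30.3% higher and 30.5% lower), and against lonidamine 1 of 22 tested members higher and 16 lower, beside 60.8% (30.1% and 30.7%). TIMM10B was the member called higher in both. In these comparisons 3 of 15 and 1 of 17 calls were lost in at least 1 alternative. TOMM40L fell further by 0.84 ± 0.17 against SR4 and by 1.04 ± 0.16 against lonidamine, and TIMM8B by 0.75 ± 0.080 and 0.75 ± 0.080. In PANC1 the combination gave 10 of 23 tested members higher and 7 lower against SR4, beside 66.5% (33.2% and 33.4%), where upper-quartile scaling gave 6 higher and 10 lower. Against lonidamine it gave 13 of 23 tested members higher and 7 lower, beside 74.6% (37.1% and 37.5%), and 6 of 17 and 2 of 20 calls were lost in at least 1 alternative. TIMM23B rose by 0.51 ± 0.093 against SR4 and 1.05 ± 0.096 against lonidamine, and TIMM23 by 0.66 ± 0.044 and 0.68 ± 0.043.

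The departure of the combination from the sum of the 2 single log2 changes, tested as an interaction, passed for 9 of 22 members in BXPC3 and 12 of 23 in PANC1. In BXPC3 1 member departed upward and 8 downward, beside 49.2% of all genes called (23.7% and 25.5%). The downward count was 5 with DESeq2's test and 5 without BXPC3 vehicle replicate 2. TIMM21, at 0.42 ± 0.12, fell less than the sum. Those below the sum were led by TIMM23B at -0.71 ± 0.17, TIMM44 at -0.63 ± 0.087, TIMM8A at -0.53 ± 0.14 and TIMM50 at -0.51 ± 0.073. Of the others, TIMM10B was lost in 1 of 17 alternatives, without BXPC3 vehicle replicate 2, and TIMM8B in 1 of 17 alternatives, with DESeq2's test. TIMM13 and TIMM9 were each lost in 12 of 17 alternatives, among them the leaving out of 8 different libraries each. In PANC1 9 of 23 departed upward and 3 downward, beside 60.9% (30.8% and 30.0%). TIMM21 stood 1.0 ± 0.080 above the sum, TOMM70 0.92 ± 0.058, TIMM23 0.85 ± 0.063 and TOMM40 0.62 ± 0.060 (SE). For these 4 genes lonidamine alone had lowered the level and the combination had not. SR4 alone had also lowered TIMM21 (-0.39), TOMM70 (-0.34) and TIMM23 (-0.17), while TOMM40 (0.02) did not pass with SR4. TOMM34, at -0.72 ± 0.083, TIMM44, at -0.57 ± 0.073, and TOMM7, at -0.35 ± 0.084, stood below it. These 12 calls held in every alternative run.

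Other genes of the import route were counted from 4 lists of 35 genes. In the disulfide relay of the intermembrane space, which folds the small TIMs, CHCHD4, its oxidoreductase, changed in PANC1 by 0.39 ± 0.085 with SR4 and 0.42 ± 0.083 with the combination, and passed in neither comparison in BXPC3. GFER, which reoxidises CHCHD4, rose by 0.27 ± 0.098 and 0.80 ± 0.086 with the combination in BXPC3 and PANC1. AIFM1, which anchors CHCHD4, fell in 5 of 6 comparisons, by 0.76 ± 0.065 and 0.24 ± 0.042 with the combination. Of the 12 sorting, assembly and MICOS genes, 2 rose and 9 fell in BXPC3 with the combination (all genes: 39.7% and 39.5%), and 6 rose and 3 fell in PANC1 (all genes: 40.1% and 40.9%). SAMM50, the channel that inserts beta-barrel proteins such as TOMM40, fell by 0.99 ± 0.080 in BXPC3 and by 0.17 ± 0.073 in PANC1. MINOS1, a core subunit of the cristae organising complex, fell by 1.54 ± 0.21 and 2.21 ± 0.24, and MTX3, a metaxin, rose by 0.70 ± 0.082 and 0.80 ± 0.057.

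Of the 11 processing and insertion genes, 2 rose and 8 fell in BXPC3 with the combination (all genes: 39.7% and 39.5%), and 4 rose and 5 fell in PANC1 (all genes: 40.1% and 40.9%). HSPE1, the matrix co-chaperonin, fell in all 6 comparisons, by 1.23 ± 0.10 and 1.66 ± 0.077 with the combination, and its partner HSPD1 by 0.18 ± 0.030 and 0.59 ± 0.031. HSPA9 and the chaperonin pair thus moved in opposite directions. PMPCA, a subunit of the peptidase that removes presequences, fell by 0.72 ± 0.053 and 0.18 ± 0.064, while its partner subunit PMPCB rose by 0.15 ± 0.052 and 0.15 ± 0.053. XPNPEP3, a mitochondrial aminopeptidase, rose by 0.84 ± 0.077 and 1.30 ± 0.060.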

How the data were processed

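The authors deposited 1 table of gene counts for each line, with 25168 genes and 12 libraries each. The tools STAR 2.7.8a, Partek and DESeq2 and the build GRCh38 (hg38) are named per the submitters' processing notes, without their role. How reads were counted (program, annotation, strand) was not given in the sources used here. The BXPC3 SR4 column numbered 3 bears a number that no sample title of that group has, and entered as an unnumbered replicate.

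TMM scaling used edgeR 4.0.16 (R 4.3.3). The filterByExpr filter at 10 counts kept 12920 genes in BXPC3, 12514 in PANC1 and 13930 in both lines together. Models of the 4 groups of each line, and of all 8 groups for differences between lines, gave 16 comparisons, each under edgeR's quasi-likelihood test, Benjamini-Hochberg adjusted over all genes (threshold 0.05). The SE is the log2 change over the square root of F. Printed CPM values use TMM factors of all 24 libraries. Library totals of 8873041 to 11822495 counts set the precision. The scripts were tested on simulated data. DESeq2 1.42.0 served as an alternative test, beside other scalings, no filter, a replicate block, fewer groups and leaving out each library.

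Members and lists were chosen with earlier results of these data known. Library values were printed for 8 core subunits and for members called with a log2 change of at least 0.75 in size, and up to 3 called partners a list and comparison could be named. Library values of TOMM7, the partner PMPCB (as the other subunit of the peptidase of PMPCA) and the neighbours of TIMM50 were added after their values were seen. Promoter sequences and coordinates are from RefSeq on GRCh38.p14. Protein sequence features were not used here.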

Additional observations from a re-analysis of the deposited data

Results flagged for a closer look

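The response to the same treatment differed between PANC1 and BXPC3 for part of the members, tested as the difference of log2 changes (PANC1 minus BXPC3) with edgeR's quasi-likelihood method and p adjusted over all genes at 0.05. With SR4 it was 11 of 23 members, beside 51.2% of all genes. Higher in PANC1 were TIMM23B (0.85), TOMM40 (0.73), TOMM34 (0.70), TIMM13 (0.60), TIMM44 (0.50), TIMM10 (0.37), TIMM21 (0.29), TIMM50 (0.29) and TOMM20 (0.28), and lower TIMM17A (-0.87) and TIMM10B (-0.83). With lonidamine 8 of 23 members differed, beside 41.8% of all genes. The response was higher in PANC1 for TOMM34 (0.62) and TOMM40L (0.53) and lower for TIMM9 (-0.53), TIMM17A (-0.49), TIMM8A (-0.43), TIMM10B (-0.26), TOMM70 (-0.26) and TOMM22 (-0.19). The calls of TIMM10 and TIMM21 with SR4 and of TOMM40L, TIMM10B and TOMM22 with lonidamine were lost in some alternatives, as given above. With the combination 16 of 23 members differed, beside 61.9% of all genes. The response was higher in PANC1 for TIMM23B (1.70), TOMM40 (1.39), TIMM21 (0.98), TIMM8A (0.84), TIMM23 (0.83), TIMM10 (0.83), TIMM50 (0.82), TIMM13 (0.62), TOMM34 (0.61), TOMM70 (0.60), TIMM44 (0.58), TOMM20 (0.47), TIMM8B (0.37) and TIMM9 (0.36) and lower for TIMM17A (-0.67) and TIMM10B (-0.43). TIMM17A and TIMM10B responded lower in PANC1 with all 3 treatments, and TOMM34 higher with all 3. The cause of these differences was not tested.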

How the results depend on the processing

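Counts of called members kept within 1.5 times of the reported value under DESeq2 size factors, upper-quartile scaling, DESeq2's test, no low-count filter, the replicate block, a fit of only the groups compared (which for an interaction is the same fit) and each left-out library, with 1 exception. The lonidamine response, PANC1 minus BXPC3, had 8 called members, and between 5 and 9 when 1 library was left out, the lowest without BXPC3 vehicle replicate 2. Counts by direction moved by over 1.5 times in several cases. In the settings named with them, these included the departures below the sum in the BXPC3 interaction (8 to 5). In PANC1 they included the rises with lonidamine (5 to 3) and in the combination against SR4 (10 to 6). With a library left out, the members that responded higher in PANC1 to lonidamine went from 2 to as few as 1. Those higher in the combination against SR4 in BXPC3 went from 1 to as many as 2. Over single members and comparisons, upper-quartile scaling left 334 of 362 results on the same side of the threshold. It took away 14 calls, added 12 and turned 2 changes that had not passed into passed falls. These were the combination against SR4 in PANC1 for TIMM50, at -0.11, and for TOMM20, at -0.11. DESeq2's test took away 16 calls and added 1, and leaving out a library took away 97 of 2856 and added 61. The cause was not tested. Deviations of libraries with the same replicate number correlated between -0.08 and 0.08 over 15 pairs in BXPC3 and between -0.14 and 0.09 over 18 pairs in PANC1, and a library correlated best with its own number in 4 of 11 and in 3 of 12 libraries, so the numbers were not taken to pair the samples. With the replicate block 11 of 362 results lost their call. The SR4 comparison with vehicle in BXPC3 went from 18 called members to 15 with the replicate block, and the combination comparison stayed at 18. Depth limited TOMM5, with 3 to 17 counts a library, and TOMM20L, with 0 to 2.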
